A study of Danio rerio with 12 samples.

Results

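Injury and yap genotype were crossed in this study, and the results below concern the genotype by injury interaction, the part of the heart's response to injury that differed between yap mutant and wild-type zebrafish. For each gene the injury response of a genotype was the mean log2(FPKM + 1) of its cryoinjured hearts minus that of its sham hearts. The interaction was the mutant response minus the wild-type response, so a value below 0 means that the response was lower in the mutant. All 12 libraries of the series enter it, and 13969 of 24782 genes, whose mean over the 12 libraries reached 1 FPKM, were tested. The authors deposited FPKM, a fragment count divided by transcript length and by the number of fragments mapped in that library.

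The 4 groups held 3 libraries each: yap +/+ fish after sham injury, yap +/+ fish after cryoinjury, yap -/- fish after sham injury and yap -/- fish after cryoinjury. In cryoinjury the opened chest gave access to the ventricle, which was touched with a 0.5 mm steel probe kept in liquid nitrogen. After sham injury the ventricle was left alone. Hearts were taken 7 days later, and the fish of all groups were 6 to 12 months old. The labels name neither the mutant allele nor the sex of the fish, nor whether a library came from 1 heart or from a pool, so the errors given here measure the spread between these libraries, which may be in part technical. The label gives the genotype of the whole fish, so the cell type in which genotype acted cannot be told from these data. These are bulk libraries of whole hearts, in which fewer cells of a type and less RNA per cell cannot be told apart.

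Yap, encoded by yap1, and its paralogue Taz, encoded by wwtr1, are transcriptional co-activators that bind Tead factors. The kinases of the Hippo pathway phosphorylate them and keep them out of the nucleus, while stretch, stiff matrix and cell spreading favour their entry. In the hearts of mammals the pathway is known for its control of cardiomyocyte proliferation and of the fibroblast and epicardial response to injury, and the zebrafish heart is known for its capacity to regenerate ventricular muscle after an injury of this kind.

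The heart muscle markers myl7, tnnt2a and nppa were abundant in all libraries. myl7, a cardiac myosin light chain, lay between 14280 and 34200 FPKM and tnnt2a, cardiac troponin T, between 5367 and 11040. nppa lay between 1700 and 3226 FPKM. Of the myosin heavy chain markers, vmhc ran from 137.8 to 525.7 FPKM and myh6 from 5.09 to 258.4. The part of this uneven myh6 level in the results was not tested. Mutant sham was the least even group. The median standard deviation of a gene between its libraries was 0.43 on the log2 scale, against 0.23 in wild-type sham, 0.19 in wild-type cryoinjury and 0.32 in mutant cryoinjury. Cytosolic ribosomal protein genes took 40.6% of all FPKM in mutant sham 1, 33.5% in mutant cryoinjury 2 and between 14.0% and 21.4% elsewhere. On the first principal component, which carried 29.4% of the variance, mutant sham 1 stood at 74.7 and mutant sham 2 at -41.7, the highest and lowest values of the 12. Many lists and some genes are given with and without mutant sham 1 or 2, as the mutant response starts from the mutant sham mean. Few are given without mutant cryoinjury 2. The part of these libraries in each result was not tested beyond such omissions.

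No gene's interaction passed the test across all genes, which was limma with Benjamini-Hochberg adjustment at 0.05. The percent called was 0.0, and the lowest adjusted p was 1.00 after rounding. Without adjustment, 271 genes had a p under 0.05 (1.94% of those tested), fewer than the 698.5 expected if no gene had an interaction. Of these, 224 lay below 0 (1.6%) and 47 above 0 (0.336%). The unadjusted count was 1524 without mutant sham 1 and 1350 with array weights, both above 698.5 and with no gene called. In the other single omissions it ran from 157 to 352. Every gene named below is therefore described by its levels and by an estimate with its 95% interval, and none was called. For a gene of median precision the unadjusted 95% interval reached 0.86 on the log2 scale to either side. The adjusted test asks for more than such an interval, and estimates well beyond 0.86 were not called. A gene that was not called may therefore still have an interaction.

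The whole table leaned to one side. The interaction was below 0 in 10010 genes (71.7%), with a median of -0.17. The median wild-type response was 0.19 and the median mutant response 0.01. This lean moved with the scaling of the libraries, and not always toward 0. Scaling libraries to the same FPKM total gave a median of -0.22, with 175 genes below and 38 above 0 at unadjusted p under 0.05. Scaling to the total without ribosomal protein and globin genes gave -0.23, with 295 and 40. Median-of-ratios rescaling and quantile normalization draw the libraries' middle values together, so a nearly even split was largely set by the method. After each library was rescaled by the median of ratios, 50.6% of genes lay below 0 and the genes at unadjusted p under 0.05 divided into 123 below and 125 above 0, and after quantile normalization 51.0% lay below 0, with 131 below and 150 above. Median-of-ratios rescaling moved the median interaction by 0.17, and most gene lists below are given with and without it. The lean also moved with mutant sham 1 and 2: 78.5% of genes lay below 0 without mutant sham 1, 55.1% with mutant sham 2 left out and 66.9% with neither. Of the 224 genes, 223 kept an interaction below 0 under median-of-ratios rescaling, 112 of them with an unadjusted p under 0.05, and 215 kept it in every omission of a single library. All 47 genes above 0 kept their sign under the rescaling, 46 of them with an unadjusted p under 0.05, and 44 kept it in every single omission. Both sets of genes were selected at that threshold in these same libraries. A kept sign therefore follows largely from the selection and is not support for them. The same holds for the omission values of single genes that are named below for a low p.

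In the same fit the wild-type response had an unadjusted p under 0.05 in 1097 genes above 0 (7.85%) and 114 below 0 (0.816%). For the mutant response these counts were 278 (1.99%) and 157 (1.12%), and no gene had an adjusted p under 0.05 in either genotype. The fit takes a spread for each gene that is shared by all groups. The p values of a genotype therefore do not rest on its own spread, and the uneven mutant libraries also enter the wild-type test. Read group by group, cryoinjury stood above sham without overlap of the 3 against 3 libraries in 3391 genes in wild-type hearts (24.3%) and in 287 genes in mutant hearts (2.05%). It stood below sham without overlap in 480 genes in wild-type hearts (3.44%) and in 286 in mutant hearts (2.05%). Both genotypes had cryoinjury above sham without overlap in 109 genes (0.78%) and below it in 27 (0.193%). Overlap depends on the spread of a group as well as on its response, and the spread was wider in the mutant groups; its part in these counts was not tested. Across genes the 2 responses had a Pearson correlation of 0.48, which was 0.24 without mutant sham 1, 0.56 with mutant sham 2 left out and 0.37 with both left out. Genes are not independent replicates, and the value is a description of these libraries.

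**Figure D1:**
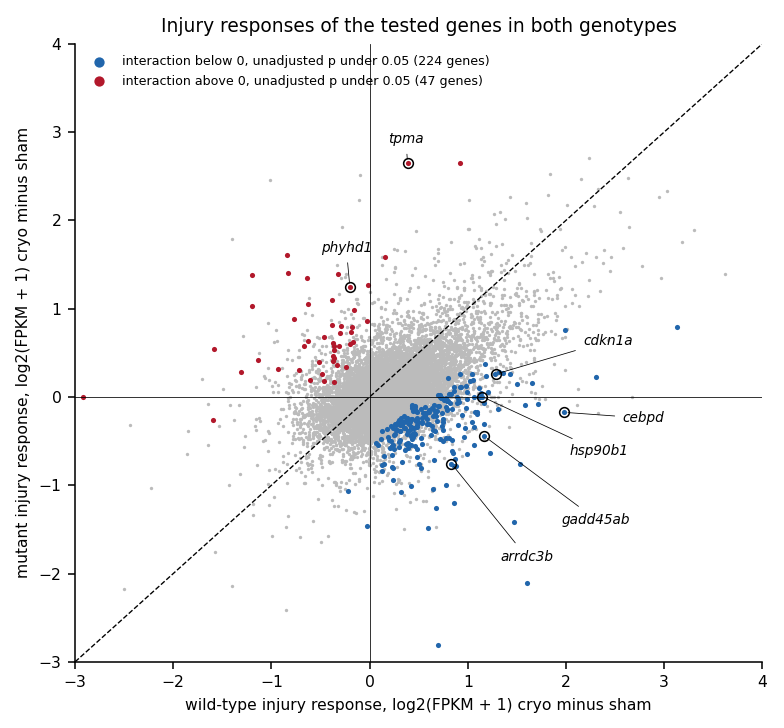
Injury response of each tested gene in wild-type hearts (x axis) and in mutant hearts (y axis), both as log2(FPKM + 1) cryoinjury minus sham, with the dashed line where the 2 are equal. The 224 blue genes have an interaction below 0 at unadjusted p under 0.05 and lie below the line, most of them right of 0 on the x axis, and the 47 red genes lie above it; no gene passed the adjusted threshold.

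Responses and interactions are given ± SE from this fit. Its spread is shared by all groups, so the SE of a response is not that genotype's own. The targeted gene, yap1 (NCBI gene 561411), was read first. yap1 was at 28.4, 28.4 and 18.8 FPKM with wild-type sham, 28.5, 29.8 and 22.1 with wild-type cryoinjury, 10.1, 14.3 and 14.4 with mutant sham and 13.7, 11.8 and 13.1 with mutant cryoinjury. The mutant libraries lay below every wild-type library, and within each genotype sham and cryoinjury overlapped. Its interaction was -0.10 ± 0.31 (SE, 95% interval -0.78 to 0.59), with an exact permutation p of 0.745 (two-sided, 400 arrangements of injury within genotype). In wild-type hearts wwtr1 was at 16, 15.5 and 11.3 FPKM after sham and 16.2, 18.8 and 16.1 after cryoinjury, and in mutant hearts at 10.5, 15.8 and 13.6 after sham and 11.2, 16.7 and 16.2 after cryoinjury. Wild-type cryoinjury lay just above wild-type sham, while the mutant groups overlapped each other and the wild-type groups. The interaction of wwtr1 was -0.12 ± 0.31 (SE, 95% interval -0.81 to 0.57), with an exact permutation p of 0.725. The sign of either estimate was positive after median-of-ratios rescaling, at 0.10 for yap1 and 0.07 for wwtr1. Neither gene showed a genotype-dependent injury response beyond the spread of these libraries.

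Endoplasmic reticulum chaperone and stress genes, in short the chaperone list, gave one of the steadier patterns among the lists. The chaperones fold secreted and membrane proteins, and their genes are known targets of the unfolded protein response. Of 25 tested members, 24 had an interaction below 0, against 71.7% of all tested genes, and 5 of them had an unadjusted p under 0.05 below 0, against 1.6% of all. The median wild-type response was 0.62, with cryoinjury above sham without overlap in 20 of the 25 genes, against 24.3% of all tested genes. The median mutant response was 0.12, with 1 gene above without overlap, against 2.05% of all. The list's median interaction was -0.47, and it was -0.27 after median-of-ratios rescaling, -0.68 without mutant sham 1, -0.35 with mutant sham 2 left out and -0.55 with neither. The members of a list were read in the same 12 libraries, so their counts are not independent observations.

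hsp90b1 was at 49, 70.9 and 55.9 FPKM with wild-type sham, 111, 138 and 142 with wild-type cryoinjury, 93.5, 96.2 and 81.7 with mutant sham and 73.7, 138 and 72.5 with mutant cryoinjury. This gene encodes the Hsp90 family chaperone of the endoplasmic reticulum. All wild-type cryoinjury values lay above all wild-type sham values, whereas mutant sham already lay above wild-type sham, and mutant cryoinjury held 1 high library beside 2 below the mutant sham range. The interaction was -1.15 ± 0.37 (SE, 95% interval -1.96 to -0.34), unadjusted p = 0.00952, and it was -1.12 without mutant sham 1 and -1.10 with mutant sham 2 left out. In wild-type hearts manf was at 10.5, 14.7 and 12.7 FPKM after sham and 23.8, 20.2 and 20.4 after cryoinjury, and in mutant hearts at 10.9, 18.4 and 18.2 after sham and 13.7, 15.7 and 16.6 after cryoinjury. manf encodes a secreted stress-induced factor of the same compartment. Wild-type cryoinjury stood clear of the other 3 groups, which overlapped one another. Its interaction was -0.75 ± 0.32 (SE, 95% interval -1.43 to -0.06), unadjusted p = 0.036.

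pdia4 was at 9.48, 15.2 and 15.5 FPKM with wild-type sham, 32.8, 35.5 and 34.6 with wild-type cryoinjury, 9.89, 24.8 and 16.4 with mutant sham and 14.5, 26.3 and 19.6 with mutant cryoinjury. For this disulfide isomerase gene wild-type cryoinjury lay above wild-type sham without overlap, the mutant groups overlapped, and the interaction was -1.05 ± 0.45 (SE, 95% interval -2.02 to -0.07). In wild-type hearts pdia6 was at 23.4, 29.7 and 30.2 FPKM after sham and 53.7, 51 and 54.9 after cryoinjury, and in mutant hearts at 20.7, 34.9 and 35.8 after sham and 25, 38.4 and 34.6 after cryoinjury. Its product is another disulfide isomerase, the pattern over the groups was the same, and the interaction was -0.81 ± 0.34 (SE, 95% interval -1.56 to -0.06). The sham libraries had calr3a at 73.9, 110.5 and 97.5 FPKM in wild type and 79.7, 151 and 136 in the mutant, and the cryoinjury libraries at 197, 191 and 178 and 123, 157 and 125. calr3a encodes a calreticulin, a calcium-binding lectin chaperone, and mutant cryoinjury overlapped mutant sham, below all 3 wild-type cryoinjury values. Its interaction was -0.83 ± 0.36 (SE, 95% interval -1.63 to -0.03). canx, encoding the related membrane chaperone calnexin, had a wild-type response of 0.64 ± 0.21, a mutant response of 0.02 ± 0.21 and an interaction of -0.62 ± 0.30 (SE, 95% interval -1.27 to 0.04). For hspa5, which encodes BiP, the central chaperone of the unfolded protein response, the wild-type response was 0.96 ± 0.30, the mutant response 0.35 ± 0.30 and the interaction -0.61 ± 0.43 (SE, 95% interval -1.55 to 0.33), an interval that holds 0.

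Proteasome subunit genes had interactions on 1 side of 0 throughout. The proteasome degrades ubiquitin-tagged proteins, and its regulatory particle recognises and unfolds them before they enter the core. All 35 subunit genes were tested and all 35 had an interaction below 0, with estimates from -0.76 to -0.16, and 5 had an unadjusted p under 0.05, against 1.6% of all tested genes on that side. The wild-type response was above 0 in all 35 (74.3% of all genes), with a median of 0.32 and no overlap in 22 (24.3% of all). The mutant response was above 0 in 5 (52.5% of all genes), with a median of -0.12. That median was -0.205 without mutant sham 1 and -0.007 with mutant sham 2 left out. In 2 genes mutant cryoinjury lay below mutant sham without overlap, against 2.05% of all. The median interaction was -0.45, within -0.58 to -0.31 over the omissions of single libraries, and -0.25 after median-of-ratios rescaling, where 32 of the 35 remained below 0.

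The 5 genes at unadjusted p under 0.05, psmd1, psmd2, psmd3, psmd11a and psmd13, all encode non-ATPase subunits of the regulatory particle. psmd3 was at 16.9, 21.1 and 19.1 FPKM with wild-type sham, 33.1, 29.4 and 32 with wild-type cryoinjury, 21, 27.5 and 25 with mutant sham and 24.3, 23 and 27 with mutant cryoinjury. Wild-type cryoinjury was above every other library, and mutant sham and mutant cryoinjury lay on top of each other. The interaction was -0.68 ± 0.25 (SE, 95% interval -1.22 to -0.14), unadjusted p = 0.0185. In wild-type hearts psmd2 was at 21.3, 24.1 and 24.2 FPKM after sham and 33.5, 36.8 and 34.7 after cryoinjury, and in mutant hearts at 19.3, 28.2 and 33.2 after sham and 24.3, 18.9 and 26.6 after cryoinjury. Mutant cryoinjury overlapped both sham groups, below all wild-type cryoinjury libraries, and the interaction was -0.76 ± 0.31 (SE, 95% interval -1.43 to -0.09). psmd11a went the opposite way in the genotypes, with means of 7.59 and 9.74 FPKM for wild-type sham and cryoinjury and of 9.58 and 7.5 FPKM for mutant sham and cryoinjury, without overlap in either genotype. Its interaction was -0.62 ± 0.26 (SE, 95% interval -1.18 to -0.06). For psmd1 the interaction was -0.75 ± 0.31 (SE, 95% interval -1.42 to -0.08), and for psmd13 it was -0.57 ± 0.26 (SE, 95% interval -1.14 to 0.00). Among core subunits, psmb1 had a wild-type response of 0.17 ± 0.19 and a mutant response of -0.30 ± 0.19.

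**Figure D2:**
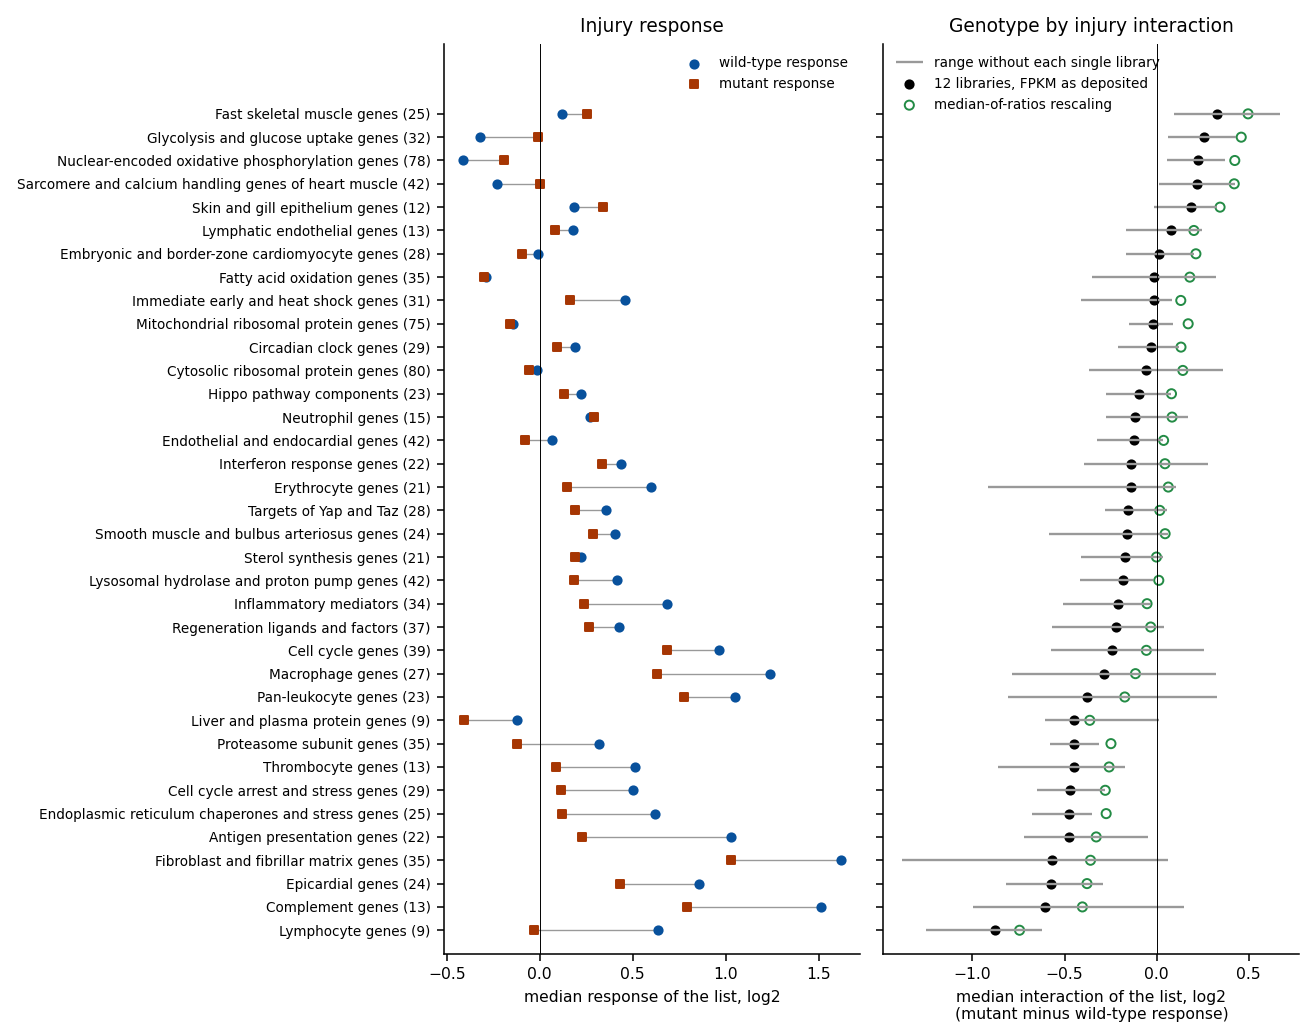
Median injury response of each gene list in wild-type and mutant hearts (left, log2 FPKM + 1, cryoinjury minus sham) and median interaction (right, mutant minus wild-type response), with the number of tested genes in brackets. Filled circles use the deposited FPKM, open circles the median-of-ratios rescaling, and bars span the 12 omissions of a single library; the bars of the proteasome, chaperone and arrest lists stay below 0, while those of the matrix, macrophage and cell cycle lists cross it.

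Cell cycle arrest and stress genes had 26 of 29 tested members below 0, against 71.7% of all tested genes, and 3 of these at unadjusted p under 0.05, against 1.6% of all, with a median interaction of -0.47. The median wild-type response was 0.50 and the median mutant response 0.12. Omitting single libraries moved the median interaction between -0.65 and -0.28, and rescaling gave -0.28. cdkn1a was at 6.45, 5.41 and 5.26 FPKM with wild-type sham, 19, 14.4 and 13 with wild-type cryoinjury, 5.15, 8.08 and 6.46 with mutant sham and 8.06, 6.27 and 9.83 with mutant cryoinjury. cdkn1a encodes the cyclin-dependent kinase inhibitor p21, a target of p53. The 3 wild-type cryoinjury libraries were the 3 highest of all 12, and the other 3 groups overlapped. The wild-type response was 1.28 ± 0.22, the mutant response 0.26 ± 0.22 and the interaction -1.02 ± 0.32 (SE, 95% interval -1.72 to -0.33), unadjusted p = 0.0074. It ranged from -1.17 to -0.88 over the omissions of single libraries and was -1.02 without mutant sham 1 and 2 together. The gene was named for its low p in these same libraries, so this range is not support for it.

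In wild-type hearts gadd45ab was at 1.9, 3.67 and 0.8 FPKM after sham and 8.51, 3.52 and 5.43 after cryoinjury, and in mutant hearts at 9.46, 9.13 and 6.7 after sham and 4.17, 7.39 and 6.48 after cryoinjury. gadd45ab encodes a growth arrest and DNA damage inducible protein. Here the mutant sham libraries were high from the start, above every wild-type sham library, and mutant cryoinjury was no higher. The interaction was -1.61 ± 0.51 (SE, 95% interval -2.73 to -0.49), unadjusted p = 0.00856. sesn1 was at 72.1, 75 and 50.8 FPKM with wild-type sham, 161, 139.6 and 109 with wild-type cryoinjury, 139, 103 and 129 with mutant sham and 131, 192 and 127 with mutant cryoinjury. sesn1 encodes a sestrin, a stress-induced regulator of growth signalling. Wild-type cryoinjury lay above wild-type sham without overlap, and both mutant groups lay above wild-type sham and overlapped each other, with an interaction of -0.78 ± 0.35 (SE, 95% interval -1.54 to -0.01). For cdkn1a both mutant means lay nearer wild-type sham, and for gadd45ab and sesn1 nearer wild-type cryoinjury, so interactions of the same sign came from different arrangements of the groups.

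Several other genes were named for the lowest unadjusted p below 0. In wild-type hearts hexa was at 3.01, 2.78 and 2.63 FPKM after sham and 7.24, 5.99 and 5.09 after cryoinjury, and in mutant hearts at 5.1, 5.59 and 5.29 after sham and 5.22, 6.51 and 4.36 after cryoinjury. hexa encodes a subunit of the lysosomal enzyme beta-hexosaminidase. Wild-type sham was the lowest group without overlap, and the other 3 groups shared a range. The interaction was -0.90 ± 0.27 (SE, 95% interval -1.48 to -0.32), unadjusted p = 0.00571. lrpap1 was at 8.57, 12.7 and 11.07 FPKM with wild-type sham, 27.4, 23.5 and 25.9 with wild-type cryoinjury, 10.1, 16.6 and 15.7 with mutant sham and 13.6, 18.6 and 17.7 with mutant cryoinjury. lrpap1 encodes the chaperone that escorts receptors of the low-density lipoprotein receptor family through the secretory pathway. Wild-type cryoinjury was clear of all other groups, and the interaction was -0.95 ± 0.32 (SE, 95% interval -1.65 to -0.25), unadjusted p = 0.0121. The sham libraries had eprs at 9.37, 12.3 and 8.85 FPKM in wild type and 15.9, 12.6 and 12.6 in the mutant, and the cryoinjury libraries at 17, 15 and 17.5 and 11.7, 13.4 and 11.4. eprs encodes glutamyl-prolyl-tRNA synthetase, its wild-type response was 0.66 ± 0.18 and its mutant response -0.15 ± 0.18, and the interaction was -0.81 ± 0.26 (SE, 95% interval -1.38 to -0.24). nup160, for a nuclear pore scaffold protein, had an interaction of -0.74 ± 0.25 (SE, 95% interval -1.28 to -0.19), cog6, for a subunit of the Golgi tethering complex, one of -0.97 ± 0.33 (SE, 95% interval -1.69 to -0.24), and wacb, for a WW domain adaptor protein, one of -0.97 ± 0.32 (SE, 95% interval -1.66 to -0.28).

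**Figure D3:**
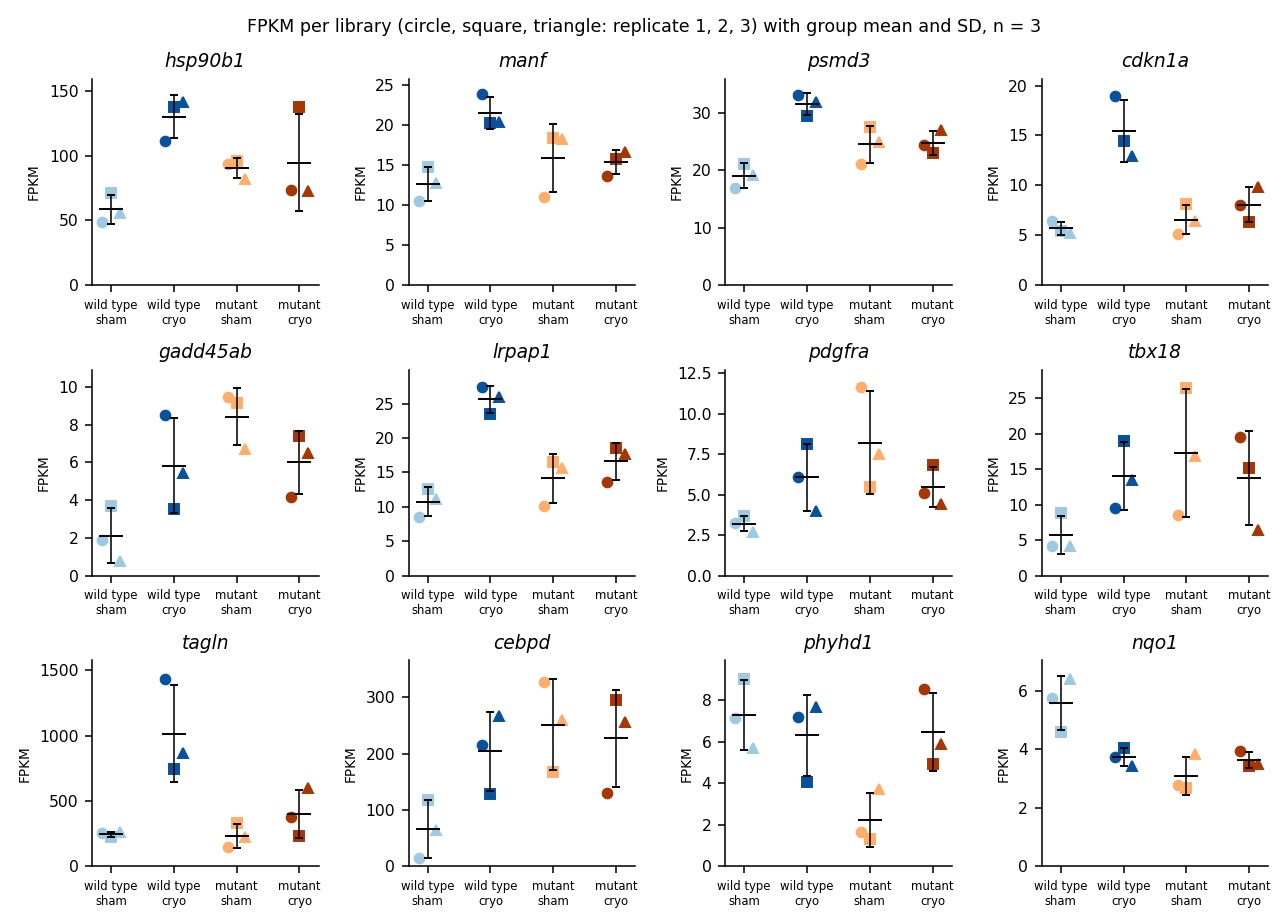
FPKM of 12 genes in each of the 12 libraries (y axis, linear from 0), with circle, square and triangle for replicates 1, 2 and 3 and bars for the group mean and SD (n = 3). In hsp90b1, manf, psmd3, cdkn1a, lrpap1 and tagln the wild-type cryoinjury group has the highest mean, in gadd45ab, pdgfra, tbx18 and cebpd the mean of mutant sham is above that of wild-type cryoinjury, and in phyhd1 mutant sham is the lowest group.

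Fibroblast and fibrillar matrix genes had a high median injury response in wild-type hearts, while that of mutant hearts moved with the mutant sham libraries. These genes make the collagens, fibronectin and periostin of the provisional scar. The median wild-type response was 1.62, with 28 of 35 genes above sham without overlap, against 24.3% of all tested genes. The median mutant response was 1.03, with 2 genes above without overlap, against 2.05% of all, and it was 0.08 without mutant sham 1 and 1.51 with mutant sham 2 left out. The interaction was below 0 in 33 of the 35 and its median was -0.57, but this value moved with the mutant sham libraries: it was -1.38 without mutant sham 1 and 0.06 without mutant sham 2. After rescaling it was -0.36. The list's median level above the wild-type sham mean was -1.01 in mutant sham 1, 1.73 in mutant sham 2 and 0.68 in mutant sham 3, whereas the mutant cryoinjury libraries lay at 1.65, 1.11 and 1.51, alongside 1.94, 1.15 and 1.63 in wild-type cryoinjury. In wild-type hearts postnb was at 29.1, 54.8 and 17.1 FPKM after sham and 332, 86.7 and 147 after cryoinjury, and in mutant hearts at 5.05, 168 and 84.9 after sham and 127, 109 and 147 after cryoinjury. postnb encodes a periostin. In wild type, cryoinjury was above wild-type sham, mutant cryoinjury lay in the range of wild-type cryoinjury, and mutant sham ran from the lowest to the second highest value of the 12. Its interaction was -0.86 ± 1.37 (SE, 95% interval -3.86 to 2.14). fn1a was at 3.52, 6.57 and 1.96 FPKM with wild-type sham, 33.5, 16 and 33.8 with wild-type cryoinjury, 0.39, 36.3 and 6.35 with mutant sham and 35.4, 28.5 and 26.7 with mutant cryoinjury. For this fibronectin gene too the mutant sham group held both the lowest and the highest library, and its interaction was -0.46 ± 1.23 (SE, 95% interval -3.15 to 2.24), which was -1.65 without mutant sham 1 and 0.73 without mutant sham 2.

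pdgfra was at 3.28, 3.66 and 2.7 FPKM with wild-type sham, 6.09, 8.15 and 4.01 with wild-type cryoinjury, 11.7, 5.47 and 7.51 with mutant sham and 5.12, 6.81 and 4.42 with mutant cryoinjury. pdgfra encodes a platelet-derived growth factor receptor of fibroblasts and their epicardial progenitors, and it was the matrix list's only gene at unadjusted p under 0.05. All mutant sham values lay above all wild-type sham values, wild-type cryoinjury lay above wild-type sham, and mutant cryoinjury overlapped mutant sham. The interaction was -1.19 ± 0.40 (SE, 95% interval -2.07 to -0.30), unadjusted p = 0.0127, with -0.93 without mutant sham 1 and -1.42 without mutant sham 2.

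At its median the epicardial list stood higher in mutant than in wild-type hearts under both conditions. The median difference over the 24 genes was 1.07 in sham hearts and 0.46 in cryoinjured hearts, and it was not tested as a list. It does not hold for each gene, as in cryoinjured hearts the genotypes overlapped for tbx18 and tcf21, given below. The median response was 0.85 in wild type and 0.43 in the mutant. The interaction was below 0 in 21 of 24 genes, with a median of -0.57 that stayed below 0 in all 12 single omissions, from -0.82 to -0.29, and was -0.38 after rescaling. In wild-type hearts tbx18 was at 4.22, 8.81 and 4.19 FPKM after sham and 9.53, 19 and 13.4 after cryoinjury, and in mutant hearts at 8.54, 26.5 and 16.9 after sham and 19.6, 15.2 and 6.5 after cryoinjury. tbx18 encodes a T-box factor of the epicardium and was the only member at unadjusted p under 0.05. Wild-type cryoinjury lay above wild-type sham, and the mutant groups overlapped, with mutant sham 2 the highest library. The interaction was -1.48 ± 0.65 (SE, 95% interval -2.90 to -0.06), unadjusted p = 0.0425. tcf21 was at 23, 25.6 and 25.7 FPKM with wild-type sham, 32.8, 57.9 and 30.4 with wild-type cryoinjury, 49.9, 84.3 and 40.4 with mutant sham and 40.9, 65.4 and 32.1 with mutant cryoinjury. Mutant sham was above wild-type sham throughout for this gene, a bHLH factor of epicardium and its fibroblast descendants, and the interaction was -0.95 ± 0.48 (SE, 95% interval -1.99 to 0.09). sema3e, encoding a secreted guidance cue, had an interaction of -0.79 ± 0.40 (SE, 95% interval -1.65 to 0.08). wt1b, a Wilms tumour factor of activated epicardium, had cryoinjury above sham without overlap in both genotypes, with responses of 1.5 ± 0.35 and 1.24 ± 0.35 and an interaction of -0.27 ± 0.49 (SE, 95% interval -1.34 to 0.81).

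Smooth muscle genes had 14 of 24 below 0 and a median interaction of -0.16, which was 0.05 after rescaling and lay between -0.59 and 0.06 over single omissions. In wild-type hearts tagln was at 255, 222 and 259.5 FPKM after sham and 1435, 745 and 867 after cryoinjury, and in mutant hearts at 146, 332 and 221 after sham and 378, 230.0 and 597 after cryoinjury. tagln encodes transgelin, an actin-binding protein of smooth muscle and of contractile fibroblasts. Wild-type cryoinjury was above all other libraries, and mutant cryoinjury overlapped mutant sham. The responses were 1.99 ± 0.39 in wild type and 0.76 ± 0.39 in the mutant, and the interaction was -1.23 ± 0.55 (SE, 95% interval -2.43 to -0.04), unadjusted p = 0.0446. acta2, the smooth muscle actin often read together with tagln, did not share this pattern, with responses of -0.33 ± 0.30 in wild type and 0.19 ± 0.30 in the mutant and an interaction of 0.52 ± 0.42 (SE, 95% interval -0.40 to 1.44).

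Macrophage and pan-leukocyte lists had median injury responses above 0 in both genotypes, but the mutant response and the interaction moved with the mutant sham libraries. Macrophage genes had a median response of 1.24 in wild type and 0.63 in the mutant, 22 of 27 lay below 0, none had an unadjusted p under 0.05 and the median interaction was -0.28. It was -0.12 after rescaling, -0.79 without mutant sham 1 and 0.32 without mutant sham 2, and the median mutant response in these omissions was 0.17 and 1.42. The summed FPKM of the macrophage list was 591 in mutant sham 1, 2924 in mutant sham 2 and 1154 in mutant sham 3, beside ranges of 560 to 908 (wild-type sham), 1109 to 1945 (wild-type cryoinjury) and 1389 to 2350 (mutant cryoinjury). Pan-leukocyte genes had 17 of 23 below 0 (73.9%), close to the 71.7% of all tested genes. Their median interaction was -0.38, and it was -0.17 after rescaling, -0.81 without mutant sham 1 and 0.33 with mutant sham 2 left out. Wild-type cryoinjury stood above wild-type sham without overlap in 22 of the 23 pan-leukocyte genes, against 24.3% of all tested genes. For the mutant groups this count was 0, against 2.05% of all. With so low a share among all genes, a count of 0 in 23 does not set this list apart. csf1ra was at 0.41, 2.02 and 0.28 FPKM with wild-type sham, 3.71, 2.72 and 5.25 with wild-type cryoinjury, 0.21, 8.99 and 2.07 with mutant sham and 4.56, 3.24 and 2.09 with mutant cryoinjury. csf1ra encodes the colony-stimulating factor receptor of macrophages. Mutant sham held both the lowest and the highest library, and mutant cryoinjury overlapped wild-type cryoinjury. Its interaction was -1.12 ± 0.87 (SE, 95% interval -3.02 to 0.78), and it was -1.85 without mutant sham 1 and -0.33 without mutant sham 2.

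Lymphocyte genes had the lowest median interaction of all lists, -0.88, over only 9 tested genes of 25 listed, 8 of them below 0. The median lay between -1.25 and -0.62 over single omissions and was -0.74 after rescaling. Only 6 of the 9 genes reached the filter without mutant sham 2, with a median of -1.08. The omissions therefore do not all read the same genes. The list's median level above the wild-type sham mean was highest in mutant sham 2, at 1.32. A high mutant sham level lowers the interaction, so the rank of this list rests in part on genes admitted by that library. The median mutant response of this list was -0.03, with 3 of the 9 genes above 0. In wild-type hearts ccl38.6 was at 0.49, 0.61 and 0.88 FPKM after sham and 1.38, 1.19 and 2.31 after cryoinjury, and in mutant hearts at 1.6, 5.48 and 6.26 after sham and 0.93, 1.64 and 1.78 after cryoinjury. ccl38.6, a chemokine gene, had mutant sham 2 and 3 far above the rest, and its interaction was -1.68 ± 0.50 (SE, 95% interval -2.77 to -0.59), unadjusted p = 0.00567. nkl.3 was at 1.81, 0.85 and 0.88 FPKM with wild-type sham, 4.22, 4.84 and 6.31 with wild-type cryoinjury, 0.5, 1.25 and 3.11 with mutant sham and 0.74, 3.32 and 1.5 with mutant cryoinjury. nkl.3 encodes an NK-lysin, a pore-forming peptide of cytotoxic lymphocytes. Cryoinjured wild-type hearts stood above every other library, and its interaction was -1.36 ± 0.56 (SE, 95% interval -2.58 to -0.14), unadjusted p = 0.0318. Both genes are expressed at a few FPKM, where log2(FPKM + 1) understates changes.

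Complement genes had 11 of 13 below 0 and a median of -0.61, or -0.40 after rescaling, -0.998 without mutant sham 1 and 0.15 with mutant sham 2 left out. In wild-type hearts c3ar1 was at 0.7, 0.91 and 0.4 FPKM after sham and 3.06, 1.33 and 2.14 after cryoinjury, and in mutant hearts at 0.4, 1.69 and 0.715 after sham and 1.1, 0.77 and 0.67 after cryoinjury. c3ar1 encodes the receptor for the complement fragment C3a. Wild-type cryoinjury was above wild-type sham without overlap, and the mutant groups overlapped, with an interaction of -0.92 ± 0.40 (SE, 95% interval -1.80 to -0.04), unadjusted p = 0.0413. Without wild-type cryoinjury the mean of c3ar1 was below the filter of 1 FPKM. It was thus tested only through the group where it was high, and its interval is not support for the sign. c4b, a complement component, had cryoinjury above sham without overlap in both genotypes, with responses of 2.78 ± 0.57 and 1.48 ± 0.57. Antigen presentation genes had 16 of 22 below 0 (72.7%), close to the 71.7% of all tested genes. Their median response was 1.03 in wild type and 0.23 in the mutant. The median interaction was -0.48, and it was -0.33 after rescaling, with 14 below 0, and -0.05 without mutant sham 2.

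Neutrophil genes had 8 of 15 below 0 and inflammatory mediators 20 of 34, smaller shares than the 71.7% of all tested genes. Their medians were -0.12 and -0.21, or 0.08 and -0.05 after rescaling. In wild-type hearts lyz was at 23.9, 10.5 and 5.25 FPKM after sham and 1.8, 5.45 and 11.13 after cryoinjury, and in mutant hearts at 0.87, 1.65 and 9.76 after sham and 1.72, 114 and 27.7 after cryoinjury. lyz encodes lysozyme, an antibacterial enzyme of neutrophils and macrophages, and had the largest interaction of the neutrophil list in size, above 0. All 4 groups overlapped, with mutant cryoinjury 2 the highest library, and the interaction was 3.48 ± 1.62 (SE, 95% interval -0.07 to 7.02), unadjusted p = 0.0537. It was 2.24 without that library, and lyz was picked by name after its values had been seen. cebpd was at 14.6, 118 and 64.8 FPKM with wild-type sham, 215, 129 and 267 with wild-type cryoinjury, 327, 167 and 259.9 with mutant sham and 131, 295 and 256 with mutant cryoinjury. cebpd encodes a C/EBP factor induced by inflammation and stress. Wild-type sham was low and uneven, wild-type cryoinjury was above it, and both mutant groups were as high as wild-type cryoinjury. The interaction was -2.16 ± 0.88 (SE, 95% interval -4.08 to -0.23), unadjusted p = 0.0312. Without wild-type sham 1, its lowest library, it was -1.32. In wild-type hearts ptges was at 2.53, 5.63 and 3.34 FPKM after sham and 8.05, 7.18 and 7.13 after cryoinjury, and in mutant hearts at 5.91, 6.28 and 5.58 after sham and 7.09, 5.59 and 6.83 after cryoinjury. ptges encodes a prostaglandin E synthase, the mutant groups overlapped each other, between the wild-type means, and the interaction was -0.74 ± 0.32 (SE, 95% interval -1.44 to -0.05). il8l1, a neutrophil chemokine gene, had an interaction of -1.48 ± 0.67 (SE, 95% interval -2.95 to -0.02), which ranged from -2.04 to -1.05 over single omissions. Thrombocyte genes had 12 of 13 below 0 with a median of -0.45, which was -0.26 after rescaling and lay between -0.86 and -0.17 over single omissions. Erythrocyte genes had 14 of 21 below 0 with a median of -0.14, which was 0.06 after rescaling, a list whose summed FPKM ran from 13260 to 133700 within wild-type sham alone.

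**Figure D4:**
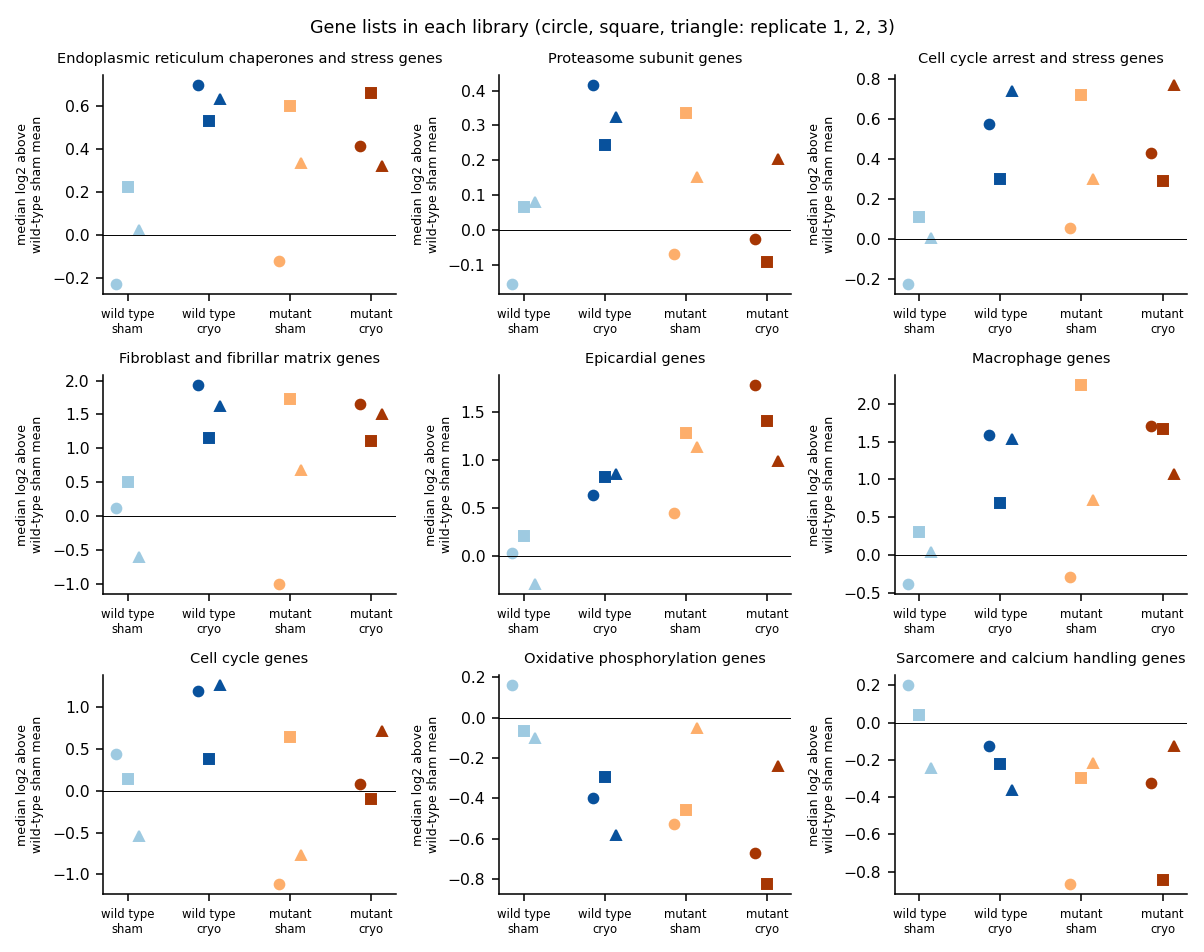
Median level of 9 gene lists in each library, as log2(FPKM + 1) above the wild-type sham mean (y axis), with circle, square and triangle for replicates 1, 2 and 3. Mutant sham 1 and mutant sham 2 lie far apart for matrix, macrophage and cell cycle genes, while for chaperone and proteasome genes all 3 wild-type cryoinjury libraries lie above all wild-type sham libraries and the mutant groups overlap.

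Cell cycle genes had injury responses above 0 in all 39 tested members in wild type and in 38 in the mutant, with medians of 0.96 and 0.68. The interaction was below 0 in 33 and its median was -0.24, but it was -0.58 without mutant sham 1, 0.26 with mutant sham 2 left out and 0.12 with neither. After rescaling it was -0.06, with 23 below 0, and these libraries gave it no stable sign. mki67 was at 2.15, 2.37 and 1.03 FPKM with wild-type sham, 5.7, 3.05 and 6.57 with wild-type cryoinjury, 0.25, 4.12 and 0.605 with mutant sham and 2.81, 2.52 and 4.52 with mutant cryoinjury. mki67 encodes the proliferation antigen Ki-67. Cryoinjury was above sham without overlap in wild type only, and mutant cryoinjury overlapped mutant sham. Its interaction was -0.13 ± 0.66 (SE, 95% interval -1.57 to 1.3). In wild-type hearts lig1 was at 4.82, 3.84 and 2.99 FPKM after sham and 6.92, 5.38 and 8.88 after cryoinjury, and in mutant hearts at 3.27, 3.5 and 3.79 after sham and 3.06, 3.44 and 4.1 after cryoinjury. lig1 encodes the replicative DNA ligase and was the only member at unadjusted p under 0.05. All wild-type cryoinjury values lay above all other libraries and the mutant groups lay within the wild-type sham range, with an interaction of -0.72 ± 0.30 (SE, 95% interval -1.38 to -0.06), unadjusted p = 0.0359. cdc20, an activator of the anaphase-promoting complex, had an interaction of -0.61 ± 0.53 (SE, 95% interval -1.77 to 0.56), and -0.13 without mutant sham 2.

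Genes of oxidative phosphorylation, the sarcomere and glycolysis had median interactions above 0, whereas the median for fatty acid oxidation was near 0. Of 78 nuclear-encoded genes of oxidative phosphorylation, 74 had an interaction above 0 and 4 below it, against 71.7% of all tested genes below 0, and none had an unadjusted p under 0.05. The median wild-type response was -0.41, with cryoinjury below sham without overlap in 60 genes, against 3.44% of all tested genes, and the median mutant response was -0.19, with 1 gene below without overlap, against 2.05% of all. The median mutant minus wild-type difference in sham hearts was -0.35. The median interaction was 0.22, from 0.06 to 0.37 over single omissions, 0.42 after rescaling and -0.09 without mutant sham 1 and 2 together. ndufa6 was at 255, 227 and 248 FPKM with wild-type sham, 167, 192 and 142 with wild-type cryoinjury, 211, 155 and 250.3 with mutant sham and 234, 192 and 203 with mutant cryoinjury. ndufa6 encodes a subunit of respiratory complex I. Wild-type cryoinjury was below wild-type sham without overlap, while the mutant cryoinjury libraries lay within the wide range of mutant sham. The interaction was 0.60 ± 0.31 (SE, 95% interval -0.07 to 1.28). In wild-type hearts ndufa11 was at 184, 173 and 159.6 FPKM after sham and 120.2, 117 and 86.1 after cryoinjury, and in mutant hearts at 102, 129 and 163 after sham and 121, 95.7 and 141 after cryoinjury. For this further complex I subunit the interaction was 0.56 ± 0.33 (SE, 95% interval -0.17 to 1.28).

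Sarcomere and calcium handling genes of heart muscle had 35 of 42 above 0, a median response of -0.23 in wild type and 0.00 in the mutant, and a median interaction of 0.22. The list's level was lowest in mutant sham 1, at -0.87 against the wild-type sham mean, and in mutant cryoinjury 2, at -0.85, the same libraries that had the highest shares of ribosomal protein genes. The median interaction was 0.03 without mutant sham 1, 0.43 without mutant cryoinjury 2 and 0.42 after rescaling. Glycolysis and glucose uptake genes had 23 of 32 above 0 and a median of 0.26, which was 0.46 after rescaling, 0.06 without mutant sham 1 and -0.22 without mutant sham 1 and 2. eno1b was at 1.15, 2.28 and 1.12 FPKM with wild-type sham, 2.74, 4.24 and 2.96 with wild-type cryoinjury, 2.64, 2.24 and 2.08 with mutant sham and 2.69, 1.59 and 1.83 with mutant cryoinjury. eno1b, which encodes an enolase, went against its list. Wild-type cryoinjury was above every other library, the mutant groups overlapped, and the interaction was -0.93 ± 0.34 (SE, 95% interval -1.67 to -0.20), unadjusted p = 0.0169. Fatty acid oxidation genes had 19 of 35 below 0 and a median of -0.01, which was 0.18 after rescaling and lay between -0.35 and 0.32 over single omissions. cpt1b, the muscle carnitine palmitoyltransferase that admits fatty acids to mitochondria, had a wild-type response of -0.24 ± 0.32, a mutant response of -0.97 ± 0.32 and an interaction of -0.73 ± 0.45 (SE, 95% interval -1.72 to 0.24).

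Known targets of Yap and Taz did not stand out from the background. Of 28 tested genes 17 lay below 0 (60.7%, against 71.7% of all tested genes), none had an unadjusted p under 0.05 in either direction, and the median interaction was -0.15. It was 0.02 after rescaling and lay between -0.28 and 0.06 over single omissions. Both genotypes had a positive median response, 0.36 in wild type and 0.19 in the mutant. ankrd1a, ctgfa and ccn1 were picked by name after their values had been seen, as the targets most often used as a readout. In wild-type hearts ankrd1a was at 0.85, 0.94 and 0.18 FPKM after sham and 6.13, 3.06 and 5.43 after cryoinjury, and in mutant hearts at 0.08, 0.8 and 0.42 after sham and 16.6, 0.92 and 8.49 after cryoinjury. ankrd1a encodes a stretch-induced ankyrin repeat protein of muscle. Cryoinjury was above sham without overlap in both genotypes, with 2 mutant cryoinjury libraries the highest of all. The responses were 1.82 ± 0.62 in wild type and 2.29 ± 0.62 in the mutant, and the interaction was 0.47 ± 0.88 (SE, 95% interval -1.46 to 2.39). ctgfa was at 26.8, 45.5 and 18.6 FPKM with wild-type sham, 70.4, 28.5 and 61.6 with wild-type cryoinjury, 15.1, 65.6 and 42 with mutant sham and 57.2, 32.1 and 77.3 with mutant cryoinjury. ctgfa encodes a matrix-associated growth factor binding protein of the CCN family, and its groups overlapped throughout, with an interaction of -0.22 ± 0.76 (SE, 95% interval -1.89 to 1.45). For ccn1, a gene of the same family listed in the file as zgc:85866, the interaction was -0.83 ± 0.92 (SE, 95% interval -2.85 to 1.18), and axl, a receptor tyrosine kinase gene, had one of -0.92 ± 0.58 (SE, 95% interval -2.20 to 0.35). These intervals reach from strong reduction to increase, so they do not show that the targets responded alike in the genotypes.

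Hippo pathway components had 15 of 23 below 0 (65.2%, against 71.7% of all tested genes). None had an unadjusted p under 0.05, and the median was -0.10, which became 0.08 after rescaling. stk3, a kinase at the head of the pathway, had an interaction of -0.37 ± 0.37 (SE, 95% interval -1.18 to 0.43), and vgll2b, a Tead-binding cofactor, one of 1.24 ± 0.60 (SE, 95% interval -0.06 to 2.54). For lats2, the kinase gene that acts on Yap itself, the wild-type response was -0.08 ± 0.22, the mutant response 0.00 ± 0.22 and the interaction 0.08 ± 0.31 (SE, 95% interval -0.59 to 0.76).

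Among genes above 0 with a gene name that is not provisional and a mean of 5 FPKM or more in the highest group, phyhd1 had the lowest unadjusted p. phyhd1 was at 7.15, 9.04 and 5.69 FPKM with wild-type sham, 7.21, 4.07 and 7.66 with wild-type cryoinjury, 1.68, 1.32 and 3.71 with mutant sham and 8.55, 4.94 and 5.88 with mutant cryoinjury. It encodes a dioxygenase related to phytanoyl-CoA hydroxylase. Mutant sham was below every other library, and mutant cryoinjury lay within the wild-type range. The wild-type response was -0.20 ± 0.32, the mutant response 1.25 ± 0.32 and the interaction 1.45 ± 0.45 (SE, 95% interval 0.47 to 2.42), unadjusted p = 0.00723. In wild-type hearts ppm1ka was at 16.1, 7.9 and 12.5 FPKM after sham and 6.94, 11.6 and 8.29 after cryoinjury, and in mutant hearts at 9.4, 5.46 and 4.71 after sham and 12.4, 10.2 and 12.8 after cryoinjury. ppm1ka encodes a mitochondrial phosphatase of branched-chain amino acid breakdown, mutant cryoinjury was above mutant sham without overlap, and the interaction was 1.19 ± 0.42 (SE, 95% interval 0.28 to 2.1). The sham libraries had nqo1 at 5.74, 4.6 and 6.42 FPKM in wild type and 2.79, 2.67 and 3.84 in the mutant, and the cryoinjury libraries at 3.75, 4.04 and 3.43 and 3.94, 3.44 and 3.51. nqo1 encodes a quinone reductase of the antioxidant response. Wild-type sham was the highest group without overlap, and the other 3 groups shared a range, with an interaction of 0.65 ± 0.26 (SE, 95% interval 0.08 to 1.23).

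In wild-type hearts p2ry13 was at 9.27, 10.9 and 5.65 FPKM after sham and 3.09, 6.78 and 10.7 after cryoinjury, and in mutant hearts at 1.74, 5.51 and 2.35 after sham and 5.92, 8.87 and 7.61 after cryoinjury. p2ry13 encodes a purinergic receptor, mutant cryoinjury was above mutant sham without overlap and the wild-type groups overlapped, and the interaction was 1.48 ± 0.58 (SE, 95% interval 0.22 to 2.74). ptprda, a receptor tyrosine phosphatase gene, had an interaction of 0.89 ± 0.35 (SE, 95% interval 0.14 to 1.65), ap4s1, an adaptor complex subunit gene, one of 0.94 ± 0.35 (SE, 95% interval 0.17 to 1.71), and mdm1, a gene of a microtubule-binding protein, one of 1.72 ± 0.61 (SE, 95% interval 0.39 to 3.04). slc25a33, a mitochondrial nucleotide carrier gene, had 1 mutant cryoinjury library at 81.1 FPKM against 9.67 to 38.2 in the other 11, and its interaction was 1.66 ± 0.68 (SE, 95% interval 0.17 to 3.14), or 1.13 without that library.

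The fast skeletal muscle list had 20 of 25 tested members above 0 and a median of 0.33, which was 0.50 after rescaling and 0.09 without mutant sham 1. The summed FPKM of its tested members ran from 2512 in mutant sham 2 to 5795 in wild-type sham 1. The list thus holds abundant members, and it was not shown to mark body wall muscle. tnnt3b was at 0.4, 0.23 and 1.07 FPKM with wild-type sham, 4.09, 0.68 and 1.83 with wild-type cryoinjury, 0.13, 0.34 and 0.605 with mutant sham and 17.9, 3.09 and 6.78 with mutant cryoinjury. tnnt3b encodes fast skeletal troponin T. Mutant cryoinjury was above mutant sham without overlap, with mutant cryoinjury 1 the highest library, and the interaction was 1.73 ± 0.72 (SE, 95% interval 0.15 to 3.31), unadjusted p = 0.0348. In wild-type hearts tpma was at 1.5, 0.07 and 0.14 FPKM after sham and 1.97, 0.55 and 0.48 after cryoinjury, and in mutant hearts at 0, 0.16 and 0.17 after sham and 14.1, 0.81 and 11.3 after cryoinjury. This tropomyosin gene of fast muscle was not among the tested members of the list. For tpma 2 mutant cryoinjury libraries stood above all others, with an interaction of 2.27 ± 0.94 (SE, 95% interval 0.21 to 4.32). Without mutant cryoinjury the mean of tpma was below the filter of 1 FPKM. It was thus tested only through the group where it was high, and its interval is not support for the sign. The levels of tnnt3b and tpma are far below those of the cardiac genes, and myhz1.1, a fast myosin heavy chain gene, was at 0 in 7 of 12 libraries. The part of attached body wall tissue in the values was not tested. Vitellogenin genes, which encode yolk precursors made by the liver of female fish, were the other extreme. The sham libraries had vtg1 at 1.12, 0.05 and 0 FPKM in wild type and 0, 34.4 and 34.6 in the mutant, and the cryoinjury libraries at 0.31, 0.64 and 3.38 and 0, 0.1 and 2.34. The 2 high libraries were mutant sham 2 and 3, the interaction was -3.50 ± 1.6 (SE, 95% interval -6.99 to -0.01), and whether the sexes were balanced over groups is not given by the labels. Without mutant sham the mean of vtg1 was below the filter of 1 FPKM. It too was tested only through the group where it was high, and its interval is not support for the sign.

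Opposite responses without overlap in either genotype were seen in few genes. In 25 genes (0.179%) wild-type cryoinjury was above sham and mutant cryoinjury below it, and in 2 genes (0.0143%) the reverse. cdkal1 was at 3.99, 3.41 and 4.25 FPKM with wild-type sham, 5.65, 4.54 and 5.84 with wild-type cryoinjury, 6.51, 7.3 and 5.46 with mutant sham and 4.38, 4.6 and 3.4 with mutant cryoinjury. cdkal1 encodes a tRNA-modifying enzyme, its wild-type response was 0.38 ± 0.19, its mutant response -0.53 ± 0.19 and its interaction -0.91 ± 0.26 (SE, 95% interval -1.49 to -0.33), unadjusted p = 0.00501. In wild-type hearts arrdc3b was at 23.2, 52.5 and 34 FPKM after sham and 71.9, 63.6 and 53.5 after cryoinjury, and in mutant hearts at 51.4, 68.7 and 69.5 after sham and 20.8, 50.7 and 46.7 after cryoinjury. arrdc3b encodes an alpha-arrestin, a membrane trafficking adaptor, and had the largest interaction among the genes of this kind named by rule, at -1.59 ± 0.50 (SE, 95% interval -2.68 to -0.49), unadjusted p = 0.0083. The 2 genes of the reverse pattern were atp5s, which encodes a coupling factor of the mitochondrial ATP synthase, and gpr137ba, which encodes an orphan receptor-like membrane protein. The sham libraries had atp5s at 23.6, 25.5 and 28.7 FPKM in wild type and 25.2, 21.9 and 21.7 in the mutant, and the cryoinjury libraries at 21.2, 19.6 and 18.8 and 26, 25.6 and 26.1. The interaction of atp5s was 0.54 ± 0.23 (SE, 95% interval 0.03 to 1.04), and that of gpr137ba 0.59 ± 0.23 (SE, 95% interval 0.08 to 1.09). In cdkal1, arrdc3b and psmd11a the mutant sham mean lay near or above the wild-type cryoinjury mean, and the mutant cryoinjury mean lay near wild-type sham.

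The remaining heart cell lists were those of the endothelium, the lymphatic vessels and border-zone muscle. Endothelial and endocardial genes had 30 of 42 below 0 (71.4%), close to the 71.7% of all tested genes. Their median was -0.12, which was 0.04 after rescaling. Lymphatic genes had 5 of 13 below 0 and a median of 0.08, or 0.20 after rescaling, and embryonic and border-zone cardiomyocyte genes 12 of 28 and 0.01, or 0.21 after rescaling, both shares smaller than the 71.7% of all tested genes. tbx5a was at 12.7, 17.7 and 15 FPKM with wild-type sham, 17, 26.2 and 12.8 with wild-type cryoinjury, 16.3, 14.6 and 19.2 with mutant sham and 10.3, 12.8 and 10.2 with mutant cryoinjury. tbx5a, of the latter list, encodes a T-box factor of cardiomyocytes, mutant cryoinjury was below mutant sham without overlap, and the interaction was -0.78 ± 0.35 (SE, 95% interval -1.55 to -0.01), unadjusted p = 0.0466. Regeneration ligands and factors had 23 of 37 below 0 with a median of -0.22, which was -0.03 after rescaling and lay between -0.57 and 0.04 over single omissions. Lysosomal genes had 35 of 42 below 0 with a median of -0.18, from -0.41 to -0.02 over single omissions, and 20 below 0 with a median of 0.01 after rescaling. Interferon response genes had 16 of 22 below 0 (72.7%), close to the 71.7% of all tested genes. Their median was -0.14, from -0.39 to 0.28 over single omissions and 0.05 after rescaling. Sterol synthesis genes had 13 of 21 below 0 with a median of -0.17, from -0.41 to 0.04 over single omissions, and 11 below 0 after rescaling. Circadian genes had 16 of 29 below 0 with a median of -0.03 that was 0.13 after rescaling, and immediate early and heat shock genes 19 of 31 with a median of -0.02, also 0.13 after rescaling. Mitochondrial ribosomal protein genes had 42 of 75 below 0 with a median of -0.02, and 17 below 0 with a median of 0.17 after rescaling. Cytosolic ribosomal protein genes had 52 of 80 below 0 and a median of -0.06, which became 0.14 after rescaling, with 10 below 0, 0.36 when mutant sham 1 was left out and -0.37 when mutant cryoinjury 2 was, the libraries with the highest ribosomal shares.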

How the data were processed

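RNA of whole hearts was extracted with Trizol, checked on a BioAnalyzer and made into poly-A libraries for BGISEQ-500, per the labels' protocols. HISAT, Bowtie2 and the genome build GRCz11 are named in the submitters' processing notes, and which program computed expression is not given in the sources used here. FPKM values deposited by the authors were used as they stand: 13 columns matched a sample, 1 matched none and was not used. The 2 columns of mutant sham 3 differed by a median of 0.017 on the log2 scale, against 0.212 to 0.673 between replicates, and were averaged. FPKM are relative to each library's total, so a larger share of ribosomal protein or globin RNA lowers all other values. Absolute depth is unknown. Where close paralogues share reads, how the authors divided them is not stated.

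Values were tested as log2(FPKM + 1), a scale that understates changes of low genes, with a mean FPKM of 1 or more required. limma 3.58.1 in R 4.3.3 fitted 4 group means over 12 libraries with a moderated, intensity-trended variance that the groups share. Benjamini-Hochberg adjustment was made over all 13969 genes. Same-numbered replicates were not treated as pairs, since 3 of 18 same-numbered pairs deviated together with a correlation over 0.1. Gene names are those of the file or, where it has a provisional name, of RefSeq (assembly GRCz12tu, 22898 gene IDs matched). Of 1451 entries in 40 gene lists, 1383 matched, and a list of mitochondrially encoded mRNAs matched none. The genes and lists were chosen with earlier results of these data known. Named genes are yap1 and wwtr1, the 12 of lowest unadjusted p on each side with a mean of 5 FPKM or more in the highest group, the 2 of lowest p in each list, and the 8 of largest opposite response on each side; others are members of lists or are said to have been picked by name.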

Additional observations from a re-analysis of the deposited data

Results flagged for a closer look

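The genes here are those named by rule in which all 3 cryoinjury libraries stood on opposite sides of all 3 sham libraries in the 2 genotypes. None had an adjusted p under 0.05 in limma with Benjamini-Hochberg adjustment, and genes with wild-type cryoinjury above and mutant cryoinjury below sham made up 0.179% of those tested.

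Below 0, the interaction was -1.59 for arrdc3b, -0.91 for cdkal1 and -0.70 for tnpo2b, which encodes a transportin. It was -0.63 for napab, which encodes a SNAP protein of membrane fusion, -0.62 for psmd11a and -0.59 for phf12b, a gene of a PHD finger protein. It was -0.55 both for ipo9, an importin gene, and for nrd1a, which encodes the peptidase nardilysin. Above 0, it was 0.59 for gpr137ba and 0.54 for atp5s. For napab the value was -0.37 without mutant sham 1, its highest library at 75.8 FPKM. Under median-of-ratios rescaling each of these 10 genes kept its sign, with values from -1.39 for arrdc3b to 0.76 for gpr137ba. The genes were selected for this pattern in the same libraries, so the kept sign is not support for it.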

How the results depend on the processing

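The number of genes at adjusted p under 0.05 was 0 in 24 of the 26 alternative settings. It was 1 with no filter on low values, plppr5a, which is listed at 0 in 9 libraries, and 0 to 1 over the omissions of a single library, with rcvrnb called without wild-type sham 1. Genes at unadjusted p under 0.05, 224 below and 47 above 0, came to 496 and 169 with no filter, 104 and 17 at a mean of 5 FPKM or more, 123 and 125 after median-of-ratios rescaling, 131 and 150 after quantile normalization, 1185 and 165 with array weights, and 677 and 114 without mutant sham 1 and 2. Over single omissions they ranged from 135 to 1456 below 0 and from 22 to 100 above 0. The count below 0 was 147 without wild-type cryoinjury 1, 135 without wild-type cryoinjury 3, 148 without wild-type sham 1, and was 1456 once mutant sham 1 was left out. The count above 0 was 22 without wild-type cryoinjury 3, 78 without wild-type sham 3, 90 without mutant cryoinjury 2 and, with mutant sham 2 left out, 100. The cause was not tested, beyond the smaller number of genes or libraries where a setting removes them.

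With a replicate block the counts were 221 below and 51 above 0, with none at adjusted p under 0.05, and with the block and median-of-ratios rescaling together, added after the data had been seen, 117 and 135. The correlations of same-numbered libraries ran from -0.205 to 0.326, so the numbers were not taken to pair samples, and not every sample correlated best with its own number.

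Of the 105 genes named by rule, 5 had a reversed sign in at least 1 setting. The interaction of yap1, from -0.251 to 0.0947 over single omissions, was 0.0994 after median-of-ratios rescaling with or without the block, 0.0326 after quantile normalization and 0.0947 without wild-type sham 3. The interaction of wwtr1, from -0.27 to 0.0498 over single omissions, was 0.0703 after median-of-ratios rescaling with or without the block, 0.0496 after quantile normalization, 0.0278 without wild-type sham 3, 0.0498 without mutant cryoinjury 1 and 0.0039 with mutant sham 2 left out. The interaction of cela1.4, an elastase gene, was 0.00094 without mutant sham 1 and 2, and the interaction of tubb5, a tubulin gene, was -1.83 without mutant sham 1 and 0.0092 without mutant sham 2. The interaction of syt1a, a synaptotagmin gene, from -0.348 to 0.192 over single omissions, was 0.178 with a pseudocount of 0.1, 0.114 after median-of-ratios rescaling with or without the block, 0.149 after quantile normalization, 0.0573 without wild-type sham 1, 0.190 without mutant cryoinjury 2, 0.192 without mutant sham 2 and 0.0342 without mutant sham 3. Other list members described in the report were read under fewer settings. With mutant sham 2 left out the interaction was 0.73 for fn1a, 0.10 for postnb, 0.11 for wt1b, 0.22 for ctgfa and 0.48 for mki67, all below 0 in the full set, and with mutant sham 1 left out it was -0.08 for lats2; mki67 was at 0.09 after median-of-ratios rescaling.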

Other observations

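Genes of tissues that lie next to the heart were read too. Liver and plasma protein genes had 7 of 9 tested genes with an interaction below 0 and a median of -0.45, which was -0.36 after median-of-ratios rescaling, 0.01 without wild-type sham 1 and, with mutant sham 1 left out, -0.605. Skin and gill genes had 5 of 12 below 0 with a median of 0.19, from -0.02 to 0.33 over single omissions, and exocrine pancreas and gut genes 3 of 6 with a median of 0.33, from -0.31 to 0.43. The summed FPKM of the pancreas and gut list was 300.2 in wild-type sham 3 and from 12.49 to 106.8 elsewhere. The part of this library was not tested beyond its omission. Gonad genes had 3 of 5 below 0 with a median of -0.23, from -0.90 to 0.30 over single omissions, and the 3 tested neural genes lay below 0 with a median of -0.04, from -0.42 to 0.11. vtg2, a further vitellogenin gene, was at 3.77, 7.48 and 2.96 FPKM in mutant sham and between 0.02 and 1.55 in the other 9 libraries, with an interaction of -1.43 ± 0.56.

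nr1d2a, a clock gene of the Rev-erb family, was at 42.5, 39.0 and 46.9 FPKM in wild-type cryoinjury and 5.10, 20.7 and 4.19 in wild-type sham, while the mutant libraries ran from 8.34 to 68.3. Its interaction was -2.07 ± 1.05. Time of day at collection is not given by the labels, and its part was not tested.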
